A study of Drosophila melanogaster with 12 samples.

Results

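Peptidoglycan recognition proteins and antimicrobial peptides are the sensing and killing arms of fly innate immunity, and 10 of their genes were examined in cells of the Drosophila melanogaster ovary: PGRP-LB, PGRP-LC, PGRP-SA, PGRP-SD, PGRP-LA, PGRP-LF, Drs, AttA, Mtk and CecA1. The list was selected on earlier results of these data, in which PGRP-LB and Drs differed between the purified and the remaining cells, so their values in those contrasts are given as a description, and nothing is drawn from the calls that a fit over all probe sets makes there. The annotation table assigned 6 probe sets to a single gene of the list, covering 5 of the 10 genes, among 10844 genes with a probe set of their own. PGRP-LB, PGRP-LF, Drs and Mtk had 1 probe set each and PGRP-LA had 2. PGRP-LC, PGRP-SA, PGRP-SD, AttA and CecA1 had none in that table and were not analysed here.

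The 12 arrays formed 4 groups of 3 biological replicates, all from ovaries of females aged 2 to 7 days, with no age given for 1 mutant nonmigratory array and no genotype given for another, whose group was read from its title. Mutant migratory cells came from slbo-Gal4, slboe7b/UAS-mCD8-GFP, slboLy6 females, which carry a different slbo allele on each chromosome, and were captured on magnetic beads through the mCD8 tag. Wild-type migratory cells were captured in the same way from slbo-Gal4, UAS-mCD8-GFP/+ females. Mutant nonmigratory and wild-type nonmigratory cells were those without the tag, from the same 2 genotypes. Every group thus carried the driver and the tag, and the tag marks cells with slbo-Gal4 activity, not migration itself. slbo encodes a C/EBP transcription factor that border cells, a small group of follicle cells, need in order to migrate through the egg chamber.

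Flies detect bacteria through peptidoglycan. PGRP-LC at the membrane and PGRP-LE inside the cell bind the diaminopimelic acid type and activate the Imd pathway and its NF-kappaB factor Relish, while PGRP-SA and PGRP-SD act upstream of Toll, which works through Dif and Dorsal. These factors switch on antimicrobial peptide genes in the fat body and in epithelia. PGRP-LB is an amidase that degrades peptidoglycan and dampens Imd signalling, PGRP-LF is a membrane protein that inhibits PGRP-LC, and PGRP-LA is a non-amidase member of the family. Drosomycin, the product of Drs, is an antifungal peptide and a standard readout of Toll, and it is also made constitutively in glands of the female reproductive tract. Metchnikowin, the product of Mtk, acts on fungi and some bacteria. In the RefSeq annotation PGRP-LA, PGRP-LC and PGRP-LF are neighbouring genes in that order.

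Signals were MAS5 values on a linear scale, with trimmed means between 150.026 and 150.03 on all arrays. As a measure of background, the 95th percentile of 23 control probe sets for bacterial, yeast and mouse transcripts lay between 24.95 and 50.88 on single arrays. The slbo transcript averaged 43.6 ± 8.17 in mutant migratory cells and 213 ± 55.7 in wild-type migratory cells (SD, n = 3 each). It fell by 2.09 on the log2 scale (SE 0.404, Benjamini-Hochberg adjusted p = 0.0134 by limma). In nonmigratory cells slbo averaged 63.1 ± 38.2 in the mutant and 126 ± 20.2 in the wild type. Between fractions, migratory against nonmigratory, slbo was not called by limma in either genotype. It differed by -0.27 in the mutant (adjusted p = 0.764) and by 0.71 in the wild type (adjusted p = 0.353). All 12 probe sets of the follicle and border cell list passed the filter described below. The ratio of the 5' to the 3' GAPDH probe set, which falls with RNA degradation or short labelled products, was 0.0932 to 0.150 in mutant migratory, 0.0783 to 0.0947 in wild-type migratory, 0.134 to 0.184 in mutant nonmigratory and 0.158 to 0.200 in wild-type nonmigratory arrays.

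PGRP-LB and Drs divided the ovary cells in opposite directions: in both genotypes PGRP-LB was bright in migratory cells and dim in nonmigratory cells, and Drs was the reverse. PGRP-LB (probe set 152827_at) had signals of 486, 535 and 689 in mutant migratory cells, against 141, 94.3 and 129 in mutant nonmigratory cells. In the wild type the signals were 480, 689 and 556 in migratory cells, against 195, 178 and 187 in nonmigratory cells. The lowest migratory array was thus above the highest nonmigratory array in each genotype, and all 12 arrays were above the control percentile. On the scale of log2(signal + 7.50), PGRP-LB was higher in migratory cells by 2.17 in the mutant (SE 0.191, 4.49-fold) and by 1.57 in the wild type (SE 0.191, 2.97-fold).

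Drs (probe set 143605_at) had signals of 36.5, 35.6 and 21.9 in mutant migratory cells, against 171, 159 and 90.0 in mutant nonmigratory cells. In the wild type they were 31.0, 24.2 and 85.4 in migratory cells, against 100.3, 104 and 346 in nonmigratory cells. Neither genotype showed overlap between the fractions, but the spread was wide, and replicate 3 was the highest array in both wild-type fractions. None of the 3 mutant migratory arrays and 1 of the 3 wild-type migratory arrays was above its control percentile, while all 6 nonmigratory arrays were. With the migratory signals at or near background, no exact difference is given. Against the control percentile on each array, Drs in mutant migratory cells was at least 2.93-fold lower than in mutant nonmigratory cells. Drs passed the filter on 7 arrays, which were the 6 nonmigratory ones and wild-type migratory replicate 3, so its presence among the tested probe sets rested mainly on the group in which it was high.

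**Figure D1:**
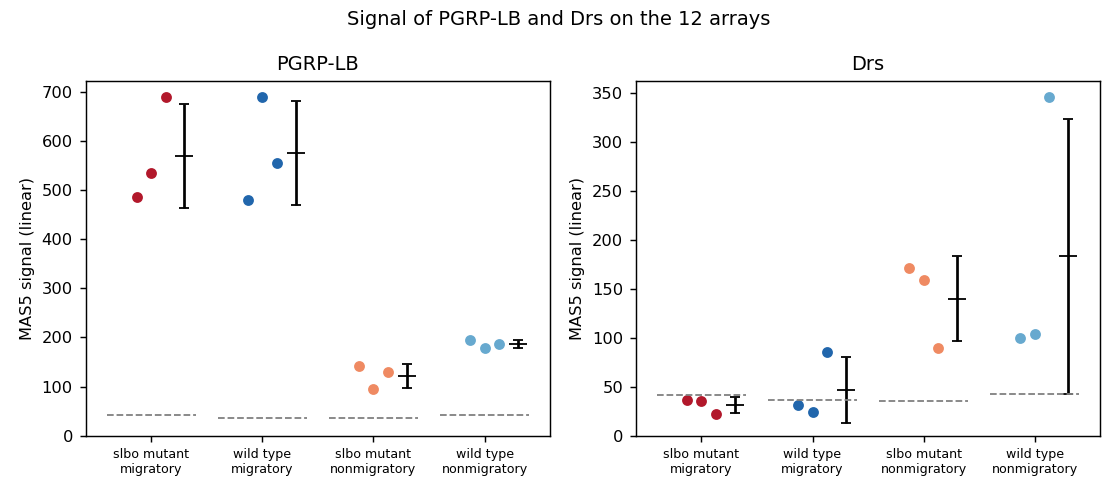
MAS5 signal (linear axis from 0) of PGRP-LB, left, and Drs, right, on each of the 12 arrays (points), with the group mean and SD (n = 3) beside them; dashed lines give each group's mean 95th percentile of 23 control probe sets. PGRP-LB lies between 480 and 689 in migratory cells of both genotypes, whereas the highest Drs signal, 346, is in wild-type nonmigratory cells.

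Of the 3 probe sets on the list that passed the filter, 2 were called between fractions in each genotype, where 8.29% of 9753 probe sets were called in the mutant and 8.42% in the wild type. The fractions did not overlap, with migratory cells higher, for 14.5% of tested probe sets in the mutant and 11.9% in the wild type, which included PGRP-LB. They did not overlap, with migratory cells lower, for 14.3% and 12.4%, which included Drs. Because PGRP-LB and Drs were chosen for these contrasts, nothing is read from the counts. The count fell to 1, without Drs, in the mutant when migratory replicate 2 or 3 or nonmigratory replicate 1 or 2 was left out, and in the wild type when migratory replicate 1 or 2 or nonmigratory replicate 3 was. The 2 contrasts use different arrays but share 1 variance estimate per probe set.

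PGRP-LB averaged 570 ± 106 in mutant migratory cells and 575 ± 105 in wild-type migratory cells, a pair that did not differ beyond its spread. The nonmigratory means were 122 ± 24.4 in the mutant and 187 ± 8.55 in the wild type (SD, n = 3 each), so the order from high to low was wild-type migratory, mutant migratory, wild-type nonmigratory and mutant nonmigratory. For Drs the nonmigratory means were 140 ± 43.7 in the mutant and 183 ± 141 in the wild type, and the migratory means were 31.3 ± 8.18 in the mutant and 46.9 ± 33.5 in the wild type. From high to low the order was wild-type nonmigratory, mutant nonmigratory, wild-type migratory and mutant migratory. The mutant and wild-type signals of Drs overlapped in both fractions.

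In migratory cells none of the 3 tested probe sets, of PGRP-LB, PGRP-LA and Drs, was called between mutant and wild type. For PGRP-LB the difference between mutant and wild-type migratory cells was -0.01 (log2, SE 0.191, 95% interval -0.42 to 0.40, adjusted p = 0.989). This value was so near 0 that its sign turned under quantile normalization. Drs was above the control percentile on 0 mutant and 1 wild-type array there, and no fold is given. Of the 3 tested probe sets 0 were called by limma and 0 passed the threshold before adjustment, against 1.81% called among all 9753. The mutant and wild-type arrays overlapped for all 3, where 9.20% of tested probe sets were higher and 8.56% lower without overlap.

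In nonmigratory cells PGRP-LB was lower in the mutant. Its 3 mutant signals, 94.3 to 141, lay below the 3 wild-type signals, 178 to 195, as was so for 7.73% of tested probe sets, while 7.36% were higher without overlap. The difference was -0.61 (log2, SE 0.191, unadjusted 95% interval -1.02 to -0.20) and was not called (adjusted p = 0.262). It kept its sign under every alternative run, between -0.72 and -0.45. Drs differed by -0.18 (SE 0.481, interval -1.21 to 0.84, adjusted p = 0.948). Limma called 0 of the 3 tested probe sets and 1 passed before adjustment, against 0.656% called among all.

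Whether the fraction difference itself depended on genotype was tested by the interaction. For PGRP-LB the migratory excess was larger in the mutant by 0.60 (log2, SE 0.270, unadjusted 95% interval 0.02 to 1.17), and this was not called (adjusted p = 0.716). Its migratory means were nearly equal in the 2 genotypes, and its nonmigratory mean was lower in the mutant. For Drs no value is given, since the interaction rests on migratory signals at or near background. Limma called 0 of 9753 probe sets, 0% in all and 0 on the list, although 660 of all and 1 on the list passed before adjustment.

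**Figure D2:**
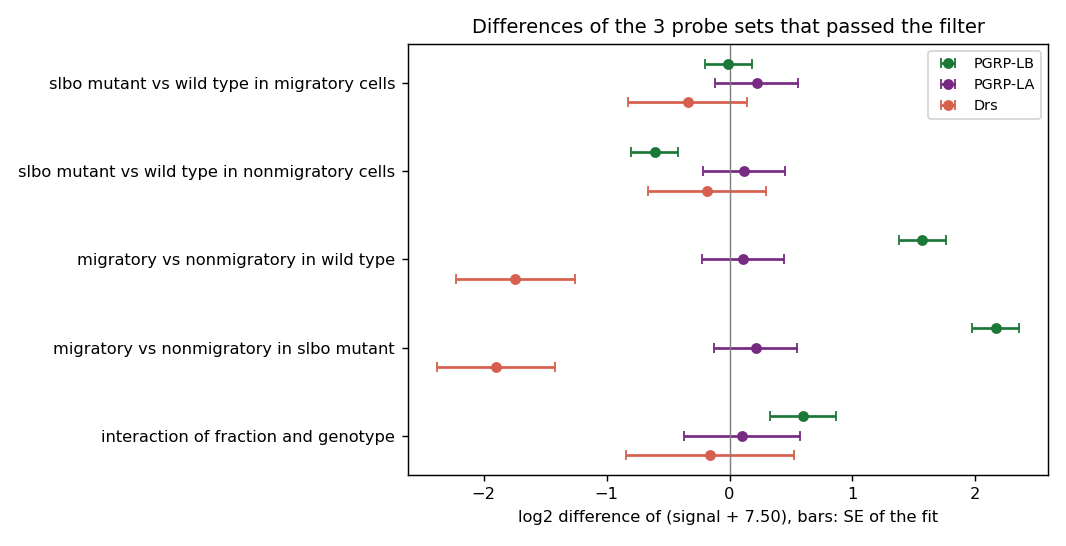
Fitted log2 differences of log2(signal + 7.50) for the 3 probe sets that passed the filter, PGRP-LB, PGRP-LA (152723_at) and Drs, in each of 5 comparisons; bars are the SE of the limma fit on 12 arrays. PGRP-LB stands at 2.17 and 1.57 between fractions, and the PGRP-LA values all lie between 0.10 and 0.22. The Drs points, other than the one between genotypes in nonmigratory cells, rest on migratory signals at or near background and are no exact sizes.

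PGRP-LA had 2 probe sets, of which 1 was measurable. Probe set 152723_at had signals of 84.6, 86.1 and 77.3 in mutant migratory cells, 80.9, 51.7 and 81.0 in wild-type migratory cells, 48.1, 96.7 and 73.7 in mutant nonmigratory cells and 71.0, 39.6 and 92.1 in wild-type nonmigratory cells. It was above the control percentile on 11 of 12 arrays and the groups overlapped throughout. The mutant differed from the wild type by 0.22 in migratory cells (SE 0.336, interval -0.50 to 0.94, adjusted p = 0.862) and by 0.12 in nonmigratory cells (interval -0.60 to 0.83, adjusted p = 0.952). Between fractions it differed by 0.21 in the mutant and by 0.11 in the wild type. The intervals between genotypes leave room for changes of up to 0.94 in log2 units. Probe set 148456_at lay between 10.5 and 27.6 on all arrays and was never above the control percentile. Its wild-type migratory signals, 21.4 to 26.2, were above the wild-type nonmigratory ones, 10.5 to 20.4, but no fold is given for signals at background.

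PGRP-LF and Mtk were at background in every group. PGRP-LF (148458_at), whose product inhibits PGRP-LC, had signals of 1.5 to 22.5 in mutant migratory cells, 3.5 to 8.1 in wild-type migratory cells, 2.3 to 3.7 in mutant nonmigratory cells and 2.8 to 31.8 in wild-type nonmigratory cells. Mtk (143770_at) had 12.5 to 24.7, 11.8 to 24.2, 6.1 to 17.9 and 8.3 to 23.1 in the same 4 groups. Neither was above the control percentile on any of the 12 arrays and both failed the filter, so neither was tested. Such signals show that the transcripts were not measurable here, not that they are absent.

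**Figure D3:**
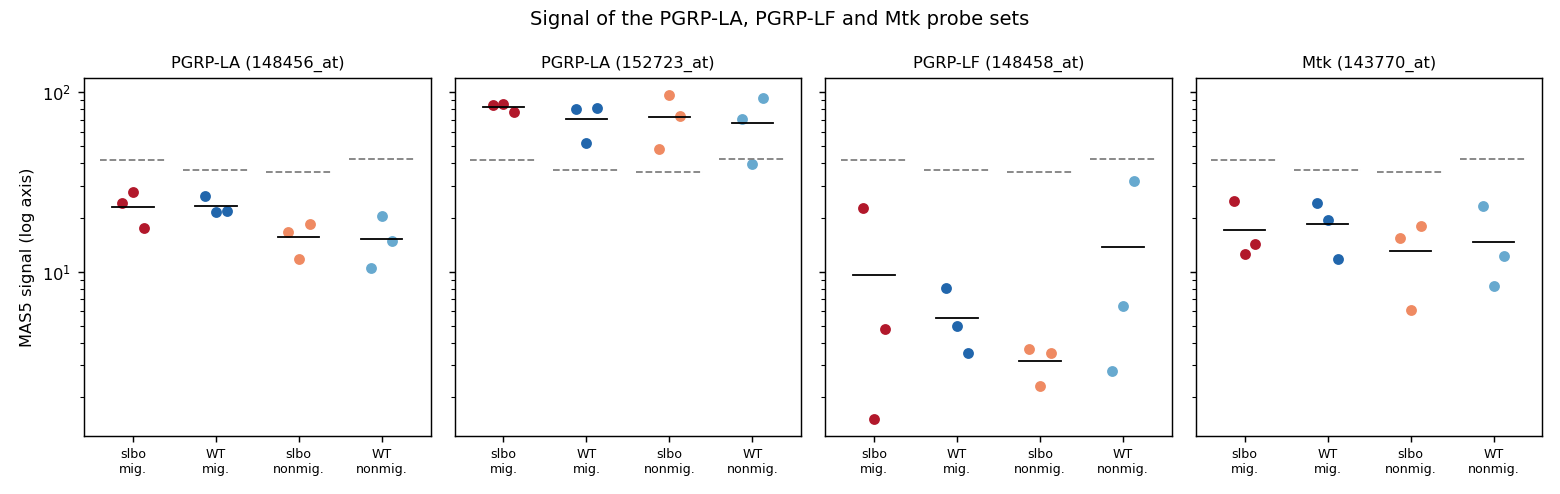
MAS5 signal (log axis) of the 2 PGRP-LA probe sets, PGRP-LF and Mtk on each of the 12 arrays (points) with the group mean (solid line); dashed lines give each group's mean 95th percentile of control probe sets. All points of 148456_at, 148458_at and 143770_at lie under the dashed lines, and 152723_at is above its array's percentile on 11 of 12 arrays.

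Other recognition genes of the family were looked at for context, and 2 of 6 probe sets passed the filter. PGRP-SC2, a secreted amidase that acts in the gut, had signals of 462, 701 and 486 in mutant migratory cells, against 71.7, 276 and 344 in wild-type migratory cells. In nonmigratory cells they were 144, 258 and 94.5 in the mutant and 58.9, 51.7 and 230.3 in the wild type. The mutant migratory arrays were the highest 3 of the 12, but the wild-type values were scattered, and no comparison was called. The difference from wild-type migratory cells was 1.46 (SE 0.555, adjusted p = 0.260), and that from mutant nonmigratory cells was 1.77 (SE 0.555, adjusted p = 0.0638).

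PGRP-LE, the intracellular sensor of the Imd pathway, was above the control percentile on all 12 arrays. Its signals were 184 to 198 in mutant migratory cells, 192 to 219 in wild-type migratory cells, 243 to 260 in mutant nonmigratory cells and 138 to 212 in wild-type nonmigratory cells. The mutant nonmigratory arrays were above those of the wild type without overlap, but the difference of 0.50 was not called (SE 0.178, adjusted p = 0.347). They were also above the mutant migratory arrays without overlap. That difference, -0.40 for migratory against nonmigratory cells, was not called by limma either (SE 0.178, adjusted p = 0.202). PGRP-SB1, PGRP-SB2, GNBP2 and GNBP3 were not above the control percentile on any array.

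Among other antimicrobial peptide genes, 4 of 6 probe sets passed the filter and none was called in any of the 5 comparisons by limma. DptB, a diptericin and a readout of Imd signalling, was the one above the control percentile on all 12 arrays. Its signals were 159, 351 and 223 in mutant migratory cells, against 162, 80.6 and 167 in wild-type migratory cells, a difference of 0.80 (SE 0.295, adjusted p = 0.240) with overlap. Between fractions it differed by 0.29 in the mutant (adjusted p = 0.626) and by -0.26 in the wild type (adjusted p = 0.694). AttD and the drosomycin-like genes Drsl5 and Drsl6 were above the control percentile on 3, 4 and 4 of 12 arrays. CecB and Def did not pass the filter.

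**Figure D4:**
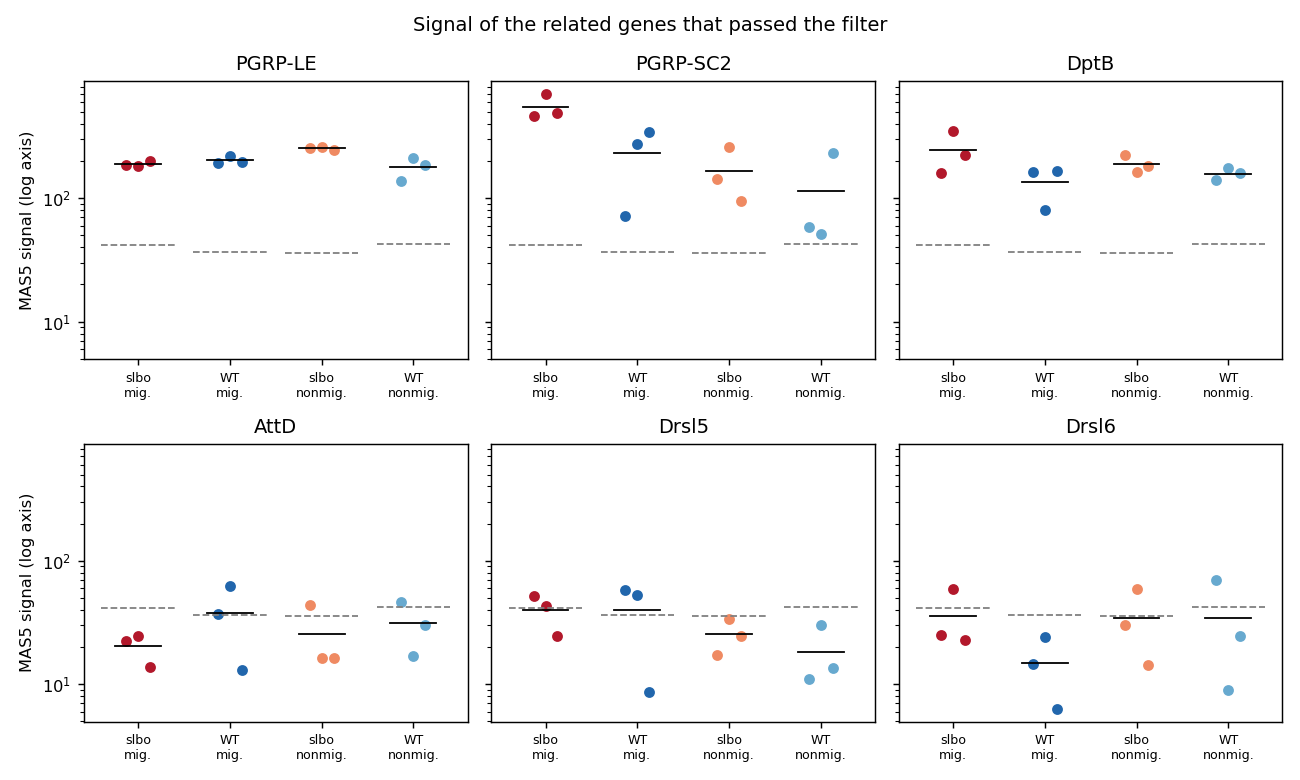
MAS5 signal (log axis) of the 6 related genes that passed the filter, on each of the 12 arrays (points) with the group mean (solid line); dashed lines give each group's mean 95th percentile of control probe sets. PGRP-SC2 is at 462 to 701 in mutant migratory cells, PGRP-LE and DptB are above the dashed lines throughout, and AttD, Drsl5 and Drsl6 lie about them.

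The signalling genes of the Imd and Toll pathways were counted against the shares called among all probe sets, which were 1.81% and 0.656% between genotypes in migratory and in nonmigratory cells and 8.29% and 8.42% between fractions of the mutant and of the wild type. Of 17 tested Imd pathway probe sets 0 were called in the wild-type fractions or between genotypes in either fraction, and 1 was lower in mutant migratory cells than in mutant nonmigratory cells. That gene was Uev1A, an E2 variant that helps build ubiquitin chains, with signals of 338, 319 and 180 in mutant migratory cells, against 471, 559 and 456 in mutant nonmigratory cells (log2 -0.86, SE 0.237, adjusted p = 0.0373). The call was lost with no filter, with no variance trend and without any of 5 of the 6 arrays compared (mutant migratory replicates 2 and 3 and all mutant nonmigratory replicates), with log2 values of -1.02 to -0.58 and adjusted p = 0.0301 to 0.146 over all alternatives. Rel, which encodes Relish, differed by -0.52 between the same cells and was not called (SE 0.221, adjusted p = 0.175).

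Of 20 tested Toll pathway probe sets 0 were called in any comparison. Their median difference was 0.09 between genotypes in migratory cells and 0.09 in nonmigratory cells, where the medians of all probe sets were 0.01 and 0.01. Between fractions the Toll medians were 0.16 in the mutant and 0.24 in the wild type, against 0.03 and 0.01 for all probe sets. The Imd medians were -0.26 for mutant against wild type in migratory cells and -0.09 in nonmigratory cells, and -0.13 and -0.14 for migratory against nonmigratory cells of the mutant and the wild type. Of the other humoral response genes, BomS2, Listericin and Tsf1 were not above the control percentile on any array. The remaining 2 probe sets of that list belong to nemy, a cytochrome gene and not an immune gene, placed there in error. Both rose in wild-type migratory against nonmigratory cells (log2 1.70, adjusted p = 0.0178, and 0.76, adjusted p = 0.00752). The first of these calls was lost with no variance trend and without wild-type migratory replicate 1 or 3 or wild-type nonmigratory replicate 2, with adjusted p up to 0.0708.

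Markers of several cell types differed between the groups. For digestive gut genes the 24 probe sets summed to 36841 to 50220 in mutant migratory cells, 5245 to 14407 in wild-type migratory cells, 19074 to 26146 in mutant nonmigratory cells and 4988 to 11488 in wild-type nonmigratory cells. Of 23 tested gut probe sets 12 rose in mutant against wild-type migratory cells and 7 in mutant against wild-type nonmigratory cells. Both counts included the lysozyme genes LysB, LysC, LysD and LysE, and whether their probe sets share signal was not tested. Between fractions 6 gut probe sets were higher in migratory cells of the mutant and 4 in those of the wild type. Among all 9753 tested probe sets, 1.81% and 0.656% were called between genotypes in migratory and in nonmigratory cells. Between fractions 8.29% were called in the mutant and 8.42% in the wild type. Intestinal cells also express PGRP-LB and PGRP-SC2, and the part of gut transcripts in their signals was not tested.

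The germline list summed to 1249 to 1468 in mutant and 585 to 1143 in wild-type migratory cells, and to 1132 to 1279 in mutant and 629 to 974 in wild-type nonmigratory cells, with 0 of 9 tested probe sets called in any comparison. All 7 tested muscle sheath probe sets had positive differences between migratory and nonmigratory cells, with medians of 0.48 in the mutant and 0.60 in the wild type, and limma called 0 of them. The shares called among all tested probe sets were 1.81% and 0.656% between genotypes in migratory and in nonmigratory cells. Between fractions they were 8.29% in the mutant and 8.42% in the wild type. Against these shares, 0 of 9 or 0 of 7 sets neither list apart. In the follicle and border cell list, ndl (log2 -0.71, adjusted p = 0.00252) and tj (-1.31, adjusted p = 0.02005) fell in mutant against wild-type migratory cells. The chorion genes Cp36 (-0.82, adjusted p = 0.0328) and Cp38 (-0.84, adjusted p = 0.0340) fell in mutant against wild-type nonmigratory cells. The other 10 of the 12 probe sets of that list were not called there. Differences over the list ran from -1.115 to 0.82, with a median of -0.28. Among those not called, shg (0.49) and 1 jing probe set (0.63) were higher in the mutant without overlap. Others, of psd, Vm26Aa and slbo, were lower without overlap. PGRP-LB was lower in the same comparison but was not called. In the mutant 3 of the 12 probe sets of the follicle and border cell list, and in the wild type 3, were called higher in migratory than in nonmigratory cells. The part of these cell types in the signals of the members was not tested.

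For Drs the candidate tissues were fat body, hemocytes and glands of the female tract. Of 9 fat body probe sets 4 were not above the control percentile on any array, among them both apolpp probe sets and Fbp2, and the list summed to 439 to 500.3 in mutant migratory cells, against 391 to 533 in mutant nonmigratory cells. In the wild type it summed to 609 to 726 in migratory cells, against 430 to 488 in nonmigratory cells. That gap was in Mtp, with signals of 412 to 463 in migratory and 164 to 260 in nonmigratory cells, while the mean log2 signal of the list overlapped, at 4.93 to 5.49 and 5.09 to 5.30. Of 12 hemocyte probe sets 6 were not above the percentile on any array, including those of Hml, NimC1 and eater. NimC2 and crq were above it on all 12 arrays and Pxn on 9. Pxn averaged 127.5 in mutant and 44.5 in wild-type migratory cells, and 126.8 and 36.3 in nonmigratory cells, without overlap between genotypes. Limma called 1 of 6 tested hemocyte probe sets higher in the mutant in each fraction, against 1.81% and 0.656% called among all. The list medians there were -0.15 and -0.34, and ush was lower in mutant migratory cells without overlap. The hemocyte list summed to 777 to 851 in migratory cells and 638 to 691 in nonmigratory cells of the mutant, and to 792 to 853 and 701 to 776 in those of the wild type. Its mean log2 signal overlapped between migratory and nonmigratory cells, at 5.13 to 5.66 and 5.29 to 5.40 in the mutant and 5.24 to 5.62 and 5.17 to 5.40 in the wild type. Between fractions, few genes of these lists were called: Mtp of the fat body list rose in wild-type migratory against nonmigratory cells (1.09, adjusted p = 0.00158) and PPO2 of the hemocyte list rose in mutant migratory against nonmigratory cells (1.37, adjusted p = 0.0380). Like Drs, Lsp2 of the fat body list was lower in mutant migratory cells, at 52.9, 27.5 and 23.5. Its mutant nonmigratory signals were 119.2, 76.6 and 85.8, without overlap. Against the control percentile this was at least 1.90-fold, and limma did not call it (adjusted p = 0.05835). In the wild type the Lsp2 fractions overlapped. Mtp, Fbp1, Apoltp and fit of that list differed by 0.50, 0.27, 0.25 and -0.04 between the mutant fractions. The part of fat body and hemocytes in the Drs signal was not tested. The spermathecal genes Send1 and Send2 were above the percentile on 2 arrays each, and the sums of their list overlapped between the fractions of both genotypes. Hr39, the third gene of that list, was above the percentile on 10 arrays. Unlike Drs, it was higher in wild-type migratory cells, at 89.9 to 113, than in wild-type nonmigratory cells, at 35.6 to 85.7. Its mutant fractions overlapped, and limma called 0 of the 3 probe sets between fractions.

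The GAPDH ratio did not overlap between the wild-type fractions and overlapped between those of the mutant, and its part in the differences of PGRP-LB and Drs was not tested. These are bulk samples, in which fewer cells of a type and less RNA per cell cannot be told apart.

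**Figure D5:**
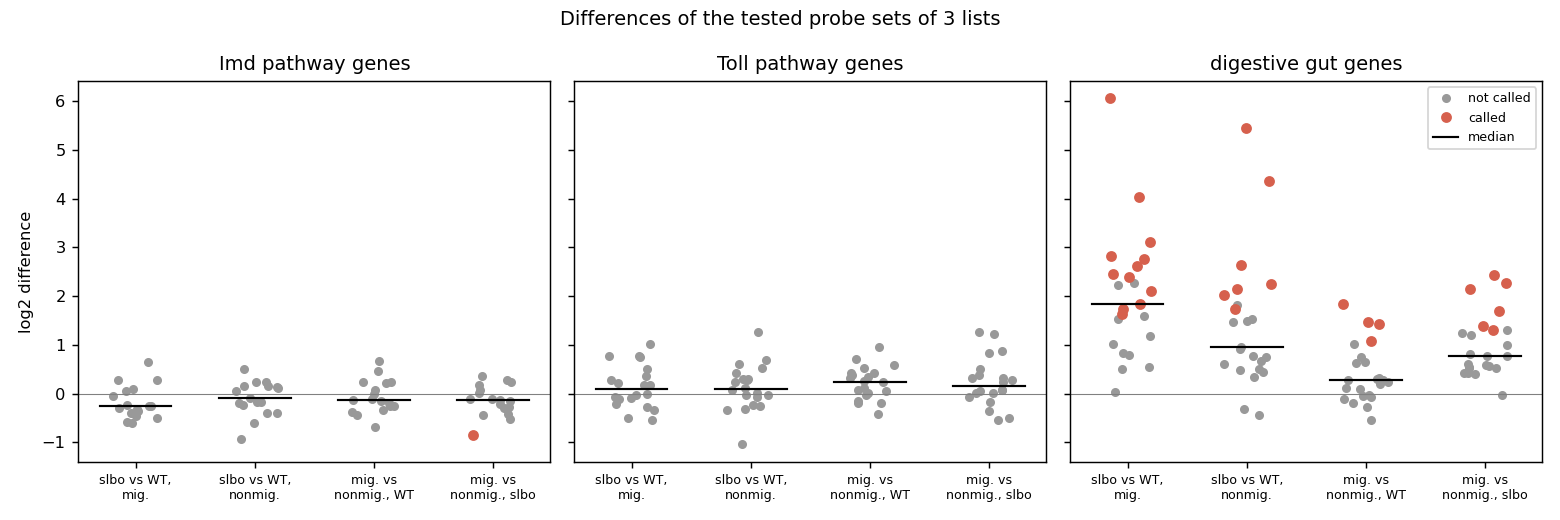
Log2 differences of the tested probe sets (points) of the Imd pathway (17), Toll pathway (20) and digestive gut (23) lists in 4 comparisons, called ones in colour, with the median as a line. The sideways spread of points carries no meaning. The 1 called Imd point is Uev1A, no Toll point is called, and 12 gut points are called between mutant and wild-type migratory cells.

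By a fixed rule, the 5 genes with the highest Pearson r to PGRP-LB over the 12 arrays, on the log2 scale, were CG5644, ImpL2, Msr-110, CG7997 and yellow-k (r = 0.954, 0.952, 0.951, 0.949 and 0.947). The points share their arrays and fall into 2 fractions. The r of deviations from group means was -0.03 for CG5644, 0.56 for ImpL2, 0.78 for Msr-110, 0.43 for CG7997 and -0.06 for yellow-k. ImpL2, a secreted antagonist of insulin-like peptides, had signals of 2935 to 3382 in mutant migratory, 3341 to 4074 in wild-type migratory, 1720 to 1932 in mutant nonmigratory and 1935 to 2584 in wild-type nonmigratory cells.

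The genes most like Drs were scny, CG12301, mRpS30, CG11555 and Glg1, with r between 0.896 and 0.926. Here the r of deviations from group means was 0.70 to 0.82, with the same arrays and the same 3 replicates a group behind every value. scny, a ubiquitin-specific protease gene that the Imd list also holds, had signals of 174 to 213 in mutant migratory cells, against 261 to 276 in mutant nonmigratory cells. In the wild type they were 166 to 227 in migratory cells, against 221 to 312 in nonmigratory cells, and no comparison of scny was called.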

How the data were processed

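The authors deposited intensity values from MAS5, which the submitters' processing notes name with no version. Genes were assigned to probe sets by a platform annotation table. The members and lists were chosen with earlier results of these data known. To each signal 5% of the array's usual trimmed mean, 7.50, was added before taking log2. Of 13966 probe sets that are no control, each a feature of its own, the 9753 above the 40th percentile of an array in at least 3 arrays were tested, including 3 of the 6 on the list. The model had 4 group means and 8 residual degrees of freedom and was fitted with limma (version 3.58.1, R version 4.3.3), with the variance allowed to follow intensity. Benjamini-Hochberg adjustment ran over all 9753, and calls were made at 0.05. Intervals are unadjusted, and the number of arrays limits the precision. The fit was tested on simulated data.

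Every probe set on the gene list is described. From the pathway lists, called genes are named, and other genes were picked out after their values were seen. The bound on a fold sets the dimmer group at the higher of its signal and the 95th percentile of 23 control probe sets on each array. Alternatives were quantile normalization, median centring, other filters and constants, a single probe set per gene, no variance trend, only the groups compared, replicate number as a block, and each array left out in turn. Tables and figures were made in Python (3.11.15) using pandas (2.3.3), numpy (2.4.6), scipy (1.17.1) and matplotlib (3.10.9).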

Additional observations from a re-analysis of the deposited data

How the results depend on the processing

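Between fractions the log2 difference of PGRP-LB ranged from 1.99 to 2.28 in the mutant and from 1.43 to 1.69 in the wild type over 22 alternatives, a description only, since PGRP-LB and Drs were chosen on these contrasts. In the mutant 1 probe set on the list was called in place of 2, with Drs lost, under no variance trend (391 called in place of 809 of all) and without migratory replicate 2 or 3 or nonmigratory replicate 1 or 2. In the wild type 1 was called with no filter, no variance trend (473 called in place of 821) or only the 2 groups compared (491), and without migratory replicate 1 or 2 or nonmigratory replicate 3. Leaving out arrays gave 1 to 2 on the list in either genotype, and 370 to 967 of all in the mutant and 455 to 973 in the wild type. Between genotypes 0 on the list were called under any alternative. There no variance trend gave 91 called in place of 177 in migratory and 14 in place of 64 in nonmigratory cells, and leaving out arrays gave 80 to 196 and 18 to 74, and 0 to 2 for the interaction. The causes were not tested.

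Values near 0 changed sign. PGRP-LB between genotypes in migratory cells was 0.0175 with quantile normalization and -0.15 to 0.12 over the arrays left out. Drs ranged from -0.65 to 0.13 between genotypes in migratory cells, from -0.48 to 0.38 in nonmigratory cells and from -0.72 to 0.31 in the interaction, and all but the nonmigratory values rest on signals at or near background. PGRP-LA ranged from -0.19 to 0.36 between genotypes in nonmigratory cells, from -0.0301 to 0.42 between the fractions of the mutant and from -0.19 to 0.35 between those of the wild type, and from -0.14 to 0.40 in the interaction. Centring arrays on their medians shifted all migratory differences between genotypes by -0.12, and the called split was then 85 higher and 125 lower in place of 102 and 75. Between wild-type fractions that split was 370 higher and 268 lower in place of 385 and 436. Over all tested probe sets, same-numbered arrays varied together little (r of -0.08 to 0.08, 0 of 12 pairs over 0.1). By deviations from group means, each wild-type migratory array was still most like the nonmigratory array of its own number. Some genes shared the replicate. Wild-type replicate 2 was lowest for Jon25Bi, at 24.2 in migratory and 32.5 in nonmigratory cells. The same replicate was highest for Mlc1, at 390 and 375. The fit with the replicate number as a block changed no call on the list. In that fit the log2 difference of PGRP-LB between genotypes in nonmigratory cells stayed at -0.61 (limma adjusted p = 0.304).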
